A study of Mus musculus with 13 samples.

Results

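NrasG12D HSPCs were compared with control HSPCs in an RNA-Seq count table of sorted bone marrow (BM) cells. The aim was to describe how the transcriptome differs between mice with 1 oncogenic Nras allele and mice without it. The members are 6 of the 13 libraries of the series, 3 from NrasG12D mice and 3 from control mice, chosen by the genotypes in the sample labels. All genes with enough counts were considered. The control mice carried Mx1-Cre alone. The NrasG12D mice carried Mx1-Cre and, at the endogenous locus, 1 conditional Nras allele behind a lox-stop-lox cassette. The genotype field of these 3 samples is spelled G21D, whereas their descriptions and titles read G12D, the spelling used here. Both groups were C57BL/6J mice, injected at about 6 weeks of age with 100 µg of pI-pC on alternate days for 3 injections. pI-pC is a synthetic double-stranded RNA that triggers interferon production, and interferon switches on the Mx1 promoter that drives Cre, so the control mice had the same inducer and the same Cre. The study's methods place experiments about a week after the last injection or at the moribund stage, and the labels call the injected mice age-matched, which the study states relative to the moribund NPmut mice. The injection date and the interval to collection were not available for single mice. A difference between the groups in these was therefore not tested and cannot be told apart from genotype. From each mouse 50000 Lin- cKit+ BM cells, a mixed population of hematopoietic stem and progenitor cells, were sorted for total RNA. The other libraries came from 3 pI-pC-injected Mx1-Cre mice with 1 p53 R172H allele (p53mut), used below as a second comparison, and from 4 moribund NPmut mice with both mutations, which had not been injected.

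NRAS is a small GTPase that carries signals from cytokine and growth factor receptors to the RAF-MEK-ERK and PI3K-AKT cascades. The G12D change keeps it bound to GTP. ERK activity is usually read from genes that it switches on and that feed back on it, such as the phosphatase gene Dusp6. Interferons act through JAK kinases and STAT and IRF transcription factors, which switch genes on through a short element rich in GAAA repeats, the interferon-stimulated response element, in the promoters of antiviral genes. Hematopoietic stem cells carry interferon receptors and respond to interferon by transient entry into cycle.

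The table assigned 15179592 to 18383281 counts to genes in each of the 6 libraries. Levels are given as CPM, counts per 1000000 of the library's TMM-scaled total. The sorted identity was checked against markers in RPKM, which also divides by the gene's exonic length in kilobases and uses the plain library total. Kit was at 57.3 to 70 RPKM, Cd34 at 32.3 to 50.7 and Myb at 140 to 168, while the mature lymphoid markers Cd3e, Cd8a, Cd79a and Ms4a1 were at 0.203 RPKM or less and the neutrophil marker Ly6g at 0.44 or less. Mature cells of these kinds were near absent. Both groups held 1 male library of 3. The groups differed in low-level reads. Over 1723 olfactory and vomeronasal receptor genes, which blood progenitors are not known to use, control libraries held 128 ± 48.8 counts per 1000000 of the plain total (mean ± SD, n = 3) and NrasG12D libraries 27.1 ± 1.54, with no overlap (85.2 to 181 against 25.8 to 28.8). Mitochondrial genes took 9.16 ± 0.794% of the control counts and 7.22 ± 0.536% of the NrasG12D counts. The non-coding RNA Gm26917 took 5.63 ± 0.301% and 7.56 ± 0.719%.

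In the fit of the injected libraries few genes were called between NrasG12D and control HSPCs. Among the gene lists the interferon-stimulated genes held the most called higher. Of 17192 genes tested with edgeR's quasi-likelihood test on the 9 injected libraries, 156 were higher (0.907%) and 37 lower (0.215%) in NrasG12D HSPCs at an adjusted p under 0.05, 193 in all (1.12%). With a fold change of at least 2 as well, the definition of a DEG here, 39 were higher (0.227%) and 27 lower (0.157%), 66 in all (0.384%). Of the 156 higher genes, 39 belonged to the interferon-stimulated, GTPase, PYHIN and MHC class I lists, 61 to any of the 37 lists and 95 to none. These numbers depend on how the lists were drawn. Several called genes of RNA sensing, given under the other observations, are outside them. The unadjusted p was under 0.05 for 2608 genes. The calls rest on the spread of the injected mice. When the 4 NPmut libraries were added to the same fit, 1 gene was called, H2-Q6, and 1620 genes had an unadjusted p under 0.05. The NPmut libraries vary more among themselves (median SD per gene of 0.34 log2 CPM, against 0.19 in control and 0.20 in NrasG12D mice). All 193 called genes had 3 NrasG12D mice on one side of the 3 control mice. Over all genes tested the groups did not overlap for 1761 genes with NrasG12D higher (10.2%) and 1859 with NrasG12D lower (10.8%), and the median log2 fold change was -0.02. Of all genes tested 8057 (46.9%) lay above 0. Leaving out control mouse 2, control mouse 3 or NrasG12D mouse 2 brought the higher calls to 55, 46 and 47, and of the 156 genes 35 were called in each of the 6 fits that left out a mouse. The genes detailed first below are mostly from those 35.

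The higher and lower calls sat at different levels of expression. The 156 higher genes had a median control level of 38.2 CPM and a median log2 fold change of 0.67 (0.31 to 3.29), and 150 of them were protein-coding. The 37 lower genes had a median control level of 2.81 CPM and a median log2 fold change of -2.08 (-7.46 to -0.35). Among the 4052 genes under a mean log2 CPM of 1, 4 were called higher and 19 lower, and the median log2 fold change was -0.25. Among the 3183 genes at 6 or more, 65 were higher and 4 lower, with a median of 0.03.

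**Figure D1:**
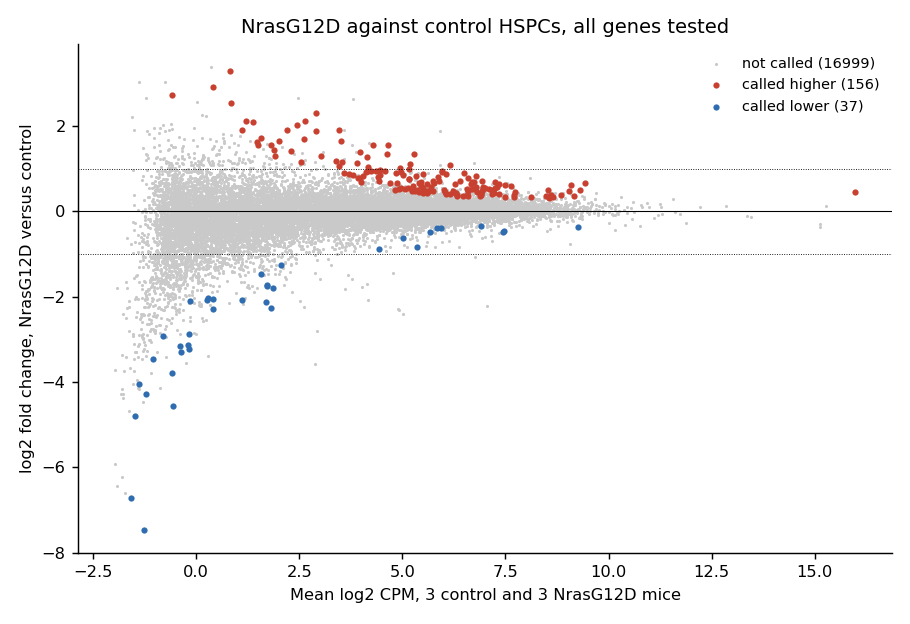
Log2 fold change of NrasG12D over control HSPCs (y axis) against the mean log2 CPM of the 6 mice (x axis) for the 17192 genes tested. Red points are the 156 genes called higher, blue points the 37 called lower, grey points the genes not called, and dotted lines mark a 2-fold change. Red points spread over the middle and high levels, whereas most blue points lie at the low end.

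The level of Nras itself, on chromosome 3, overlapped between the groups. Control mice had 58.5, 62.5 and 63.5 CPM and NrasG12D mice 58.5, 59.7 and 62.5 (log2 fold change -0.03 ± 0.0878 (SE), adjusted p = 0.912). A count per gene does not tell the mutant from the wild-type transcript, so this value checks the level and not the genotype. Trp53, wild-type in both groups, had 112 to 125 CPM in control and 121 to 130 in NrasG12D mice (0.12, adjusted p = 0.495). Within 10 Mb of Nras, 263 genes were tested and 2 were called, Ctss higher and Slc16a1 lower.

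Components of the Ras pathway itself gave no call. Of 31 tested Ras genes, exchange factors and GTPase-activating proteins, 18 lay above 0, and the list's median log2 fold change was 0.05. In the RAF-MEK-ERK list of 18 genes the median was 0.04 and in the PI3K-AKT-mTOR list of 24 genes 0.12. The edgeR test called 0 genes in these 3 lists. Among highly expressed members, the adaptor gene Grb2 differed by 0.13 ± 0.101 on the log2 scale (SE, adjusted p = 0.589), the phosphatase gene Ptpn11 0.08 ± 0.0728 (adjusted p = 0.656) and the kinase gene Map2k2 0.08 ± 0.0917 (adjusted p = 0.717). The immediate-early genes, which report acute ERK activity, had 0 calls in 20 tested and a median of -0.04. Their member Jun, at 115 to 151 CPM in control and 74.3 to 137 in NrasG12D mice, overlapped between the groups.

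The output side of ERK signaling did move in part. Of 23 tested ERK output and feedback genes, 4 were called higher and 0 lower, 19 lay above 0, and the median was 0.30. For this list and those below, the shares over all genes tested were 0.907% called higher, 0.215% called lower and 46.9% above 0. Dusp6, which encodes the phosphatase that switches off ERK, had 19.3, 21.7 and 23.4 CPM in control mice and 39.7, 48.6 and 42 in NrasG12D mice. The lowest NrasG12D value exceeded the highest control value, and Dusp6 rose by 1.02 ± 0.134 on the log2 scale (SE, adjusted p = 0.00247). In p53mut mice Dusp6 stood at 24.1 to 31.9 CPM. Dusp6 kept its call in all 6 fits that left out a mouse.

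The other 3 called ERK genes rested on fewer of those fits. Ccnd1, which encodes cyclin D1, had 18, 14.4 and 14.5 CPM in control mice against 32.2, 53 and 34.2 in NrasG12D mice (1.35 ± 0.259, adjusted p = 0.042). It was called in 1 of the 6 fits that left out a mouse. Myc, the growth regulator, had 422, 384 and 401 CPM against 501, 569 and 500 (0.38 ± 0.0766, adjusted p = 0.0314) and was called in 3 of 6. Emp1, a membrane protein gene, was at 0.94 to 2.17 CPM in control and 4.04 to 7.14 in NrasG12D mice (1.71, adjusted p = 0.0472), and was called in 1 of 6. Groups did not overlap for any of the 3 genes.

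Interferon-stimulated genes formed the clearest group. Of 45 listed genes 43 passed the filter on low counts, and 20 of these were called higher (against 0.907% over all genes tested) and 0 lower. The median log2 fold change of the 43 was 0.94, against -0.02 over all genes tested, 41 lay above 0, and for 37 the 3 NrasG12D mice lay above the 3 control mice (10.2% over all genes). Summed over the list, control mice had 850 to 1000 CPM, p53mut mice 881 to 1060 and NrasG12D mice 1330 to 1790. All 3 NrasG12D mice contributed, with medians over the list of 0.68, 0.99 and 1.28 log2 CPM above the mean of the control mice. In bulk samples a larger share of cells of a responding type and more RNA of these genes per cell cannot be told apart.

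The promoters of several of these genes are shown because they hold letters of the kind found in the interferon-stimulated response element. In RefSeq promoter windows of 300 bases (250 before to 50 after each start, GRCm38.p6), a pair of GAAA copies with any 2 bases between them, on either strand (TTTC copies spaced the same way on the other), was found in 388 of 10220 tested genes with a window (3.8%). The pair was found in 24 of 116 genes called higher (20.7%) and in 1 of 17 called lower (5.88%). Of the tested interferon-stimulated genes, 14 of 30 held it (46.7%). These were 7 of the 10 called members with a window and 7 of the 20 not called (35%). It was in 9 of 11 interferon-inducible GTPase genes and in 8 of 10 PYHIN genes. The 16 ERK output genes with a window held 0, which is near the 3.8% over all genes for so short a list. Among the 75 called higher genes with a window that belong to none of the gene lists, 5 held it (6.67%). The windows are 80 bases of the GRCm38.p6 assembly, read 5′ to 3′ in the direction of transcription, with the matching letters in capitals. Overlapping matches in Isg15 run together, and Dusp6 is shown as an ERK output gene whose promoter window holds no match.
Isg15, chr4:156200840-156200919, minus strand: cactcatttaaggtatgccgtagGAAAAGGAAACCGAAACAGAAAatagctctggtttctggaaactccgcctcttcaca
Ifit1, chr19:34640769-34640848, plus strand: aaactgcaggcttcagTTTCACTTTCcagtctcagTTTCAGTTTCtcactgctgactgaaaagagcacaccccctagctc
Oas3, chr5:120777690-120777769, minus strand: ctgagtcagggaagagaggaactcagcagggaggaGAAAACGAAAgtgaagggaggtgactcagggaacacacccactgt
Slfn8, chr11:83020814-83020893, minus strand: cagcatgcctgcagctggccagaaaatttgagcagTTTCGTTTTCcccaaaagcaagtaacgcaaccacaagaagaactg
Ifi206, chr1:173491319-173491398, minus strand: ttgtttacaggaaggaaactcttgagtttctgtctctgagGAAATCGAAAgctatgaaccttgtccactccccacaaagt
Tgtp2, chr11:49064238-49064317, minus strand: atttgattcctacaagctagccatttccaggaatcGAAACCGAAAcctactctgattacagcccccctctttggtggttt
B2m, chr2:122147513-122147592, plus strand: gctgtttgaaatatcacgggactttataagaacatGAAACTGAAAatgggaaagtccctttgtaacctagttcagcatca
Dusp6, chr10:99263151-99263230, plus strand: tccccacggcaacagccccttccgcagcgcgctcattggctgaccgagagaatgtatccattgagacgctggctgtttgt
A match describes the letters and was not tested for binding. Isg15 held 3 matches and Ifit1 2, and the other interferon-responsive genes shown held 1 each.

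Sensors and effectors of antiviral defense were among the 20 calls. Ifit1, whose protein binds foreign RNA caps and which has the pair of sites shown above, had 1.82, 3.4 and 3.76 CPM in control mice and 9.07, 14 and 16.1 in NrasG12D mice. No NrasG12D mouse fell in the control range, and the log2 fold change was 2.12 ± 0.303 (SE, adjusted p = 0.00395). Oas2, an oligoadenylate synthetase that activates RNase L, had 4.99, 6.04 and 6.37 CPM against 15.8, 19.1 and 29.9 (1.89 ± 0.241, adjusted p = 0.00247). The related Oas3 had 11.2, 12.3 and 10.8 against 31, 29.3 and 39.9 (1.55 ± 0.19, adjusted p = 0.00247). Both synthetases were clear of the control range in every mouse. Rtp4, an interferon-induced inhibitor of viral replication, had 5.17, 8.05 and 6.27 CPM against 19.2, 21.1 and 20.3 (1.64 ± 0.211, adjusted p = 0.00247). Isg15, the ubiquitin-like modifier with the densest cluster of GAAA repeats shown, was lower in level at 1.17 to 2.01 CPM in control and 3.69 to 6.29 in NrasG12D mice. It rose by 1.54 (adjusted p = 0.0485) but was called in 0 of the 6 fits that left out a mouse (highest adjusted p = 0.157).

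Some regulators of the interferon response were called higher as well. Irf9, a DNA-binding transcription factor of the interferon response, had 40, 48.2 and 49 CPM in control mice and 78.6, 87.7 and 92 in NrasG12D mice. The groups were well apart (0.91 ± 0.12, adjusted p = 0.00247). Usp18, which removes ISG15 from proteins and dampens the receptor, had 2.41, 5.35 and 4.28 CPM against 10.2, 15.5 and 18.8 (1.88 ± 0.29, adjusted p = 0.00729). Irf9, Usp18, Ifit1, Oas2, Oas3 and Rtp4 were called in all 6 fits that left out a mouse. Irf7, a transcription factor that amplifies interferon production, missed the threshold. It had 6.63 to 14.1 CPM in control and 28.9 to 38.9 in NrasG12D mice, without overlap (1.60 ± 0.328, adjusted p = 0.0608).

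Further interferon-stimulated genes were called over a range of levels. Slfn8, a Schlafen family gene, had 25.8, 24.2 and 25.1 CPM in control mice and 46.7, 52.8 and 61 in NrasG12D mice (1.10 ± 0.141, adjusted p = 0.00247). Sp100, a component of nuclear bodies, rose by 0.63 ± 0.0825 and Epsti1 by 0.86 ± 0.114 (adjusted p = 0.00247 for each). Zbp1, a sensor of left-handed nucleic acids, had 3.11 to 4.03 CPM against 7.26 to 15.8 (1.69, adjusted p = 0.0149) and was called in 4 of 6 fits that left out a mouse. Mx1, an antiviral GTPase gene, had 2.11 to 2.66 CPM against 6.93 to 12.5 (1.91, adjusted p = 0.0478) and was called in 0 of 6. Slfn8, Sp100 and Epsti1 were called in all 6.

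**Figure D2:**
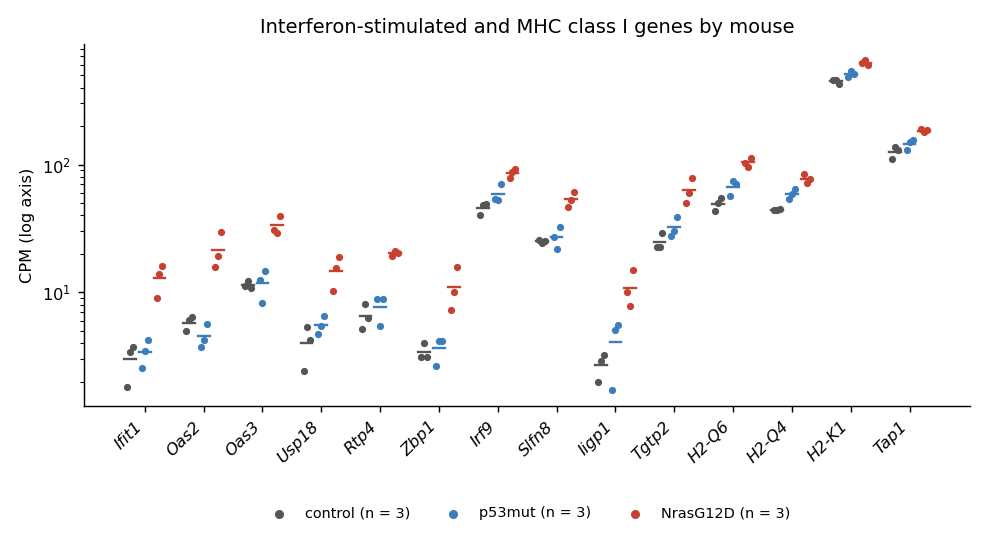
CPM on a log axis of 14 interferon-stimulated and MHC class I genes in each mouse of the control (grey), p53mut (blue) and NrasG12D (red) groups, with a bar at each group's mean of 3 mice. The 3 red points lie above the 3 grey points for each of the 14 genes, for example Oas2 at 15.8 to 29.9 CPM against 4.99 to 6.37. All 14 genes were picked from those called higher, and every gene called higher separates these groups.

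Interferon-inducible GTPases and PYHIN genes, families of cytosolic defense and DNA-sensing proteins, showed the same direction. Of 19 tested GTPase genes 6 were called higher and 0 lower (median 0.56), and of 11 tested PYHIN genes 5 and 0 (median 1.10). Tgtp2, a T cell-specific GTPase gene that progenitors also express here, had 22.5, 22.8 and 29.3 CPM in control mice and 50.1, 59.6 and 78.7 in NrasG12D mice, with no overlap (1.33 ± 0.179, adjusted p = 0.00518). Igtp and Irgm2 rose by 0.78 (adjusted p = 0.0258) and 0.83 (adjusted p = 0.0216), and each was called in 2 of 6 fits that left out a mouse. Iigp1, from the same family, had 2 to 3.24 CPM against 7.87 to 14.9 (2.01, adjusted p = 0.0282) and was called in 1 of 6.

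Ifi206, a PYHIN gene, had the largest fitted increase of all called genes. Its control values were 0.88, 0.314 and 0.365 CPM and its NrasG12D values 4.16, 5.6 and 5.7. The groups were far apart, and the fitted rise was 3.29 ± 0.408 on the log2 scale (SE, adjusted p = 0.00247), and an estimated 13.1% of its control counts was background. Ifi203 and Mndal, better expressed members of the family, had 41.7 to 62.8 and 36.5 to 47 CPM in control mice and 78.4 to 102 and 57.8 to 76.4 in NrasG12D mice. They rose by 0.87 (adjusted p = 0.0236) and 0.71 (adjusted p = 0.0143), and were called in 2 and 4 of the 6 fits that left out a mouse. PYHIN, Tgtp, Oas and H2-Q genes each have close paralogs, so the share of reads given to each copy is uncertain.

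MHC class I genes, which show peptides from inside the cell to CD8+ T cells, were in part called higher. Of 28 tested members 8 were called higher and 0 lower, 26 lay above 0, and the median was 0.40. H2-Q6, a nonclassical class I gene, had the smallest adjusted p in the data. It stood at 43, 49.6 and 54.6 CPM in control mice and 102, 96.5 and 113 in NrasG12D mice, an increase of 1.08 ± 0.114 on the log2 scale (adjusted p = 0.00168). Its neighbor H2-Q4 had 44.2, 43.9 and 44.7 CPM against 84.1, 71.1 and 77 (0.81 ± 0.0957, adjusted p = 0.00247). In both genes the control mice lay in a narrow band below the NrasG12D mice. The p53mut mice lay between these groups, at 57 to 73.8 CPM for H2-Q6 and 53.7 to 64.6 for H2-Q4. By the edgeR test NrasG12D differed from p53mut by 0.63 for H2-Q6 (adjusted p = 0.0354) and by 0.39 for H2-Q4 (adjusted p = 0.171).

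Classical heavy chains and loading genes were among these calls. H2-K1, a classical heavy chain, had 459, 456 and 426 CPM in control mice against 617, 651 and 603 in NrasG12D mice (0.48 ± 0.0727, adjusted p = 0.00576), again with no overlap. H2-D1 rose by 0.50 (adjusted p = 0.0154) and was called in 4 of 6 fits that left out a mouse. Tap1, the peptide transporter, had 110, 137 and 130 CPM against 189, 179 and 185 (0.55 ± 0.0926, adjusted p = 0.0122). B2m, the shared light chain whose promoter window is shown above, had 477 to 534 CPM against 608 to 683 (0.37, adjusted p = 0.0328) and was called in 2 of 6 of those fits. H2-Q7 had 30.6 to 38.6 CPM and 54.1 to 66.2 and missed the threshold (0.78, adjusted p = 0.0646). The p53mut mice were also above the control mice for H2-K1 (480 to 538 CPM) and B2m (579 to 624 CPM). For B2m they overlapped the NrasG12D mice. For H2-D1 (328 to 381 CPM) and Tap1 (129 to 155 CPM) the p53mut mice overlapped the control mice.

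MHC class II genes, which antigen-presenting cells use to show peptides to CD4+ T cells, were in part called higher, from low levels. Of 12 tested genes 5 were called higher and 0 lower, each of the 12 lay above 0, and the median was 0.84. H2-Ab1 had 13.6, 17 and 13.8 CPM in control mice and 26.6, 36.3 and 22.7 in NrasG12D mice, with no overlap (0.95 ± 0.168, adjusted p = 0.0154). Left out in turn, control mouse 3 and NrasG12D mouse 2 ended this call (highest adjusted p = 0.0612). H2-Aa and H2-Eb1, which encode its partner chain and the beta chain of the other class II molecule, were at 2.19 to 3.52 and 1.83 to 2.96 CPM in control mice. They rose by 1.40 (adjusted p = 0.0337) and 1.43 (adjusted p = 0.0316), and were called in 1 and 2 of those 6 fits. Cd74, the invariant chain that guides class II molecules, had 6.75, 10.6 and 7 CPM against 18.6, 32.8 and 19.7 and missed the threshold (1.55 ± 0.328, adjusted p = 0.0608).

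Markers of the cells that carry class II were set beside these values. B lymphoid genes had 0 calls in 12 tested, and the B cell markers Cd79a and Ms4a1 were at 0.203 RPKM or less in all 6 libraries. Of 18 tested dendritic cell genes 0 were called by the edgeR test, with a median of 0.27 and a summed level of 633 to 746 CPM in control against 829 to 949 in NrasG12D mice. That summed level does not overlap between the groups, and its part in the class II values was not tested. Of 34 monocyte and macrophage genes 2 were called higher and 0 lower, and the summed level overlapped (2040 to 2130 against 1990 to 2380 CPM).

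Genes of lymphoid-primed progenitors formed a further group. Of 22 tested 3 were called higher and 0 lower, 19 lay above 0, and the median was 0.49. Satb1, a chromatin organizer of lymphoid lineages, had 97.5, 72.7 and 80.9 CPM in control mice and 146, 171 and 130 in NrasG12D mice. The groups did not overlap (0.83 ± 0.125, adjusted p = 0.00781), and the call held in all 6 fits that left out a mouse. Notch1, the receptor that directs T cell fate, had 106, 89.2 and 91.6 CPM against 150, 180 and 141 (0.72 ± 0.115, adjusted p = 0.0113). Without control mouse 2 its adjusted p was 0.052. Sox4, required for early B cell development, rose by 0.62 (adjusted p = 0.042) and was called in 1 of those 6 fits.

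The defining members of that stage had larger but more variable differences. Flt3, the receptor that marks lymphoid-primed multipotent progenitors, had 101, 55.4 and 63 CPM in control mice against 152, 202 and 129 in NrasG12D mice (1.13 ± 0.297, adjusted p = 0.139). Dntt, the terminal transferase that adds bases at antigen receptor joints, had 44.8, 22.8 and 30.8 against 143, 154 and 65.6 (1.88 ± 0.437, adjusted p = 0.116). Neither gene overlapped between groups and neither passed the threshold. The sorted gate holds several progenitor types, and a shift in their shares was not tested.

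**Figure D3:**
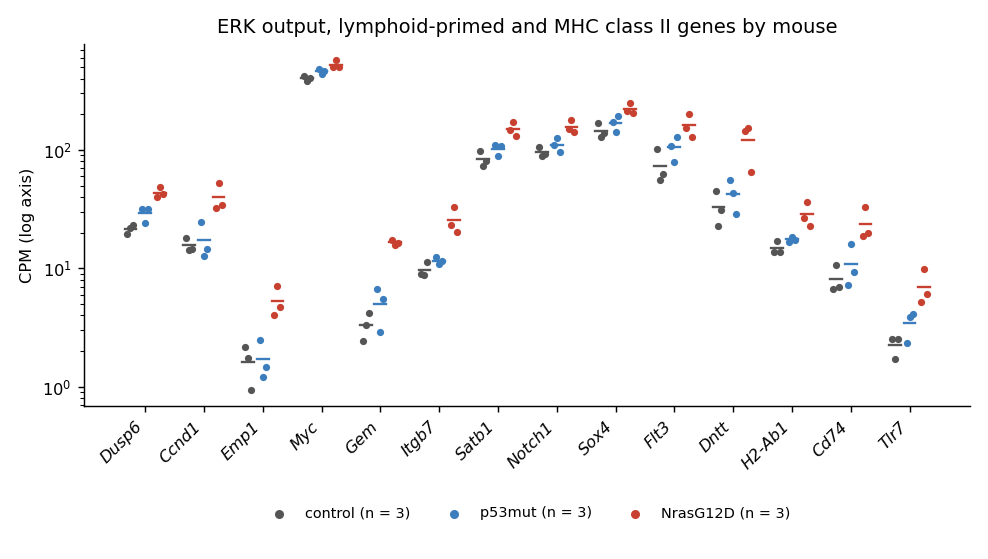
CPM on a log axis of 14 genes of ERK output, lymphoid-primed progenitors, adhesion and antigen presentation in each control (grey), p53mut (blue) and NrasG12D (red) mouse, with a bar at each group's mean of 3 mice. The 3 NrasG12D mice lie above the 6 others for Dusp6, Ccnd1, Emp1, Myc, Gem, Itgb7, Satb1, Notch1, Sox4, H2-Ab1 and Tlr7. Of these, only Gem and Itgb7 were called against p53mut mice. Dntt spreads from 65.6 to 154 CPM among NrasG12D mice.

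Gem and Itgb7 had some of the strongest single changes. Gem, a small GTP-binding protein gene of the Rad and Kir family, had 2.41, 3.33 and 4.23 CPM in control mice and 17.5, 15.7 and 16.5 in NrasG12D mice. The NrasG12D values were tightly grouped above the control values (2.31 ± 0.28, adjusted p = 0.00247). Itgb7, the integrin subunit that pairs with alpha 4 for homing to the gut, had 8.92, 8.81 and 11.3 CPM against 23.3, 33.1 and 20.3 (1.40 ± 0.187, adjusted p = 0.00247). Gem and Itgb7 were called in all 6 fits that left out a mouse. Itgal, the alpha chain of LFA-1, rose by 0.68 (adjusted p = 0.0173) and was called in 3 of 6. With Itgb7 and Itgal, 2 of 32 tested adhesion genes were called higher and 0 lower, and the list's median was 0.09.

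Cytokine receptors rose in a few members. Of 28 tested 2 were called higher and 0 lower, with a median of 0.36 and 24 above 0. Il1r1, the signaling receptor of interleukin 1, had 20.2, 14.2 and 14.4 CPM in control mice against 29.4, 30.3 and 28.3 (0.85 ± 0.181, adjusted p = 0.0397). Il3ra, the interleukin 3 receptor alpha chain, had 12.2 to 13.1 CPM against 19.4 to 20.6 (0.68 ± 0.153, adjusted p = 0.0485). The groups did not overlap in either gene, which were called in 1 and 0 of the 6 fits that left out a mouse. Kit, used for the sort, was at 514 to 580 CPM in control and 536 to 642 in NrasG12D mice (0.08 ± 0.115, adjusted p = 0.797). Csf1r, the receptor of M-CSF (0.33 ± 0.297, adjusted p = 0.657), Met, the receptor of HGF (0.50 ± 0.42, adjusted p = 0.64), and Il6ra (0.56 ± 0.167, adjusted p = 0.139) did not pass.

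Inflammatory signaling beyond interferon had scattered calls. In the NF-kB list 1 of 21 tested genes was called, Rela, which encodes the p65 subunit, at 80.7 to 89.7 CPM in control and 106 to 116 in NrasG12D mice (0.37 ± 0.0779, adjusted p = 0.0361). Among 24 tested Toll-like receptor and inflammasome genes 1 was called, Tlr7, an endosomal receptor of single-stranded RNA, at 1.7 to 2.52 and 5.15 to 9.87 CPM (1.64, adjusted p = 0.027). Both genes were higher in each NrasG12D mouse than in each control mouse, and were called in 0 and 2 of the 6 fits that left out a mouse. In p53mut mice Rela stood at 101 to 107 CPM, above the control mice and overlapping the NrasG12D mice. By the edgeR test NrasG12D differed from p53mut by 0.09 for Rela (adjusted p = 0.836) and by 1.02 for Tlr7 (adjusted p = 0.317). JAK-STAT feedback genes and targets had 0 calls in 23 tested by the edgeR test and a median of 0.13. Dab2ip, which encodes a Ras GTPase-activating protein, differed by 0.12 ± 0.179 on the log2 scale (adjusted p = 0.796).

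HSC identity genes gave few calls. Of 35 tested HSC identity genes 1 was called higher and 1 lower, with a median of 0.08. The lower one was Fgd5, a marker of HSCs, at 6.34, 3.46 and 4.8 CPM in control mice and 1.05, 2.27 and 1.97 in NrasG12D mice (-1.47 ± 0.33, adjusted p = 0.0473). It was called in 0 of 6 fits that left out a mouse. The higher one was Ifitm3, an interferon-induced membrane protein that stem cells carry, which rose by 0.75 (adjusted p = 0.0258, called in 3 of 6). Gata2, a transcription factor of stem and progenitor cells, had 157, 126 and 175 CPM against 247, 245 and 222 and did not pass (0.64 ± 0.194, adjusted p = 0.165), although the groups did not overlap. Gata1, its erythroid relative, had 42.8 to 59.1 against 35.1 to 51.7 CPM and overlapped (-0.30 ± 0.211, adjusted p = 0.547).

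Erythroid and neutrophil lists leaned the other way without a call. Of 36 tested erythroid genes 33 lay below 0, with a median of -0.37, and of 26 tested neutrophil granule and GMP genes 25 lay below 0, with a median of -0.45. For comparison, 46.9% of all genes tested lay above 0. The edgeR test called 0 genes in both lists. Their summed levels overlapped between control and NrasG12D mice, at 2530 to 3580 and 2510 to 2920 CPM for the erythroid list and 15700 to 19500 and 13700 to 19300 CPM for the neutrophil list. Mpo, the myeloperoxidase gene of granulocyte-monocyte progenitors, differed by -0.12 ± 0.284 on the log2 scale (adjusted p = 0.893), and Car2, an erythroid carbonic anhydrase gene, -0.42 ± 0.197 (adjusted p = 0.361). Megakaryocyte, mast cell, and T and NK lymphoid genes had 0 calls in 26, 16 and 11 tested, with medians of 0.10, 0.23 and 0.14.

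Replication, mitosis and p53 target genes had medians near 0. DNA replication genes had 0 calls in 38 tested and a median of -0.08, with 5 above 0. Mitosis genes had 0 calls in 38 and a median of -0.02, with 16 above 0. Mki67, the proliferation marker, differed by -0.09 ± 0.0724 on the log2 scale (SE, adjusted p = 0.593), with 2350 to 2510 CPM in control and 2180 to 2360 in NrasG12D mice. These ranges overlap narrowly. Among 21 cell cycle inhibitors and quiescence genes 2 were called higher and 0 lower, 19 lay above 0, and the median was 0.21. They were Ccng2, an atypical cyclin gene, at 15.1 to 18.4 and 23.5 to 33.3 CPM (0.70, adjusted p = 0.042), and Trp53inp1, at 10.4 to 14.9 and 22.3 to 29.9 CPM (0.94, adjusted p = 0.027). Trp53inp1, a p53 target that promotes autophagy, was also the 1 call among 34 p53 targets, whose median was 0.07. Ccng2 and Trp53inp1 were called in 1 and 2 of the 6 fits that left out a mouse. BCL-2 family genes had 0 calls in 14 tested and a median of 0.00.

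MYC and ribosome, glycolysis and chaperone lists had medians near 0, with 2 calls in these 3 lists. Cholesterol synthesis genes had a median of -0.16 over 25 tested, with 6 above 0. MYC and ribosome biogenesis genes had a median of -0.07 over 35 tested, with Myc itself as the 1 call. Glycolysis genes had a median of -0.07 over 25 tested, and Slc16a1, the lactate transporter MCT1, was the 1 called lower (127, 139 and 141 CPM against 98.1, 111 and 110, -0.35 ± 0.0799, adjusted p = 0.0478). Slc16a1 was called in 0 of the 6 fits that left out a mouse. Unfolded protein response and heat shock genes had 0 calls in 31 tested and a median of -0.02. Hsp90ab1, an abundant chaperone gene of this list, differed by 0.11 ± 0.0953 on the log2 scale (adjusted p = 0.644).

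**Figure D4:**
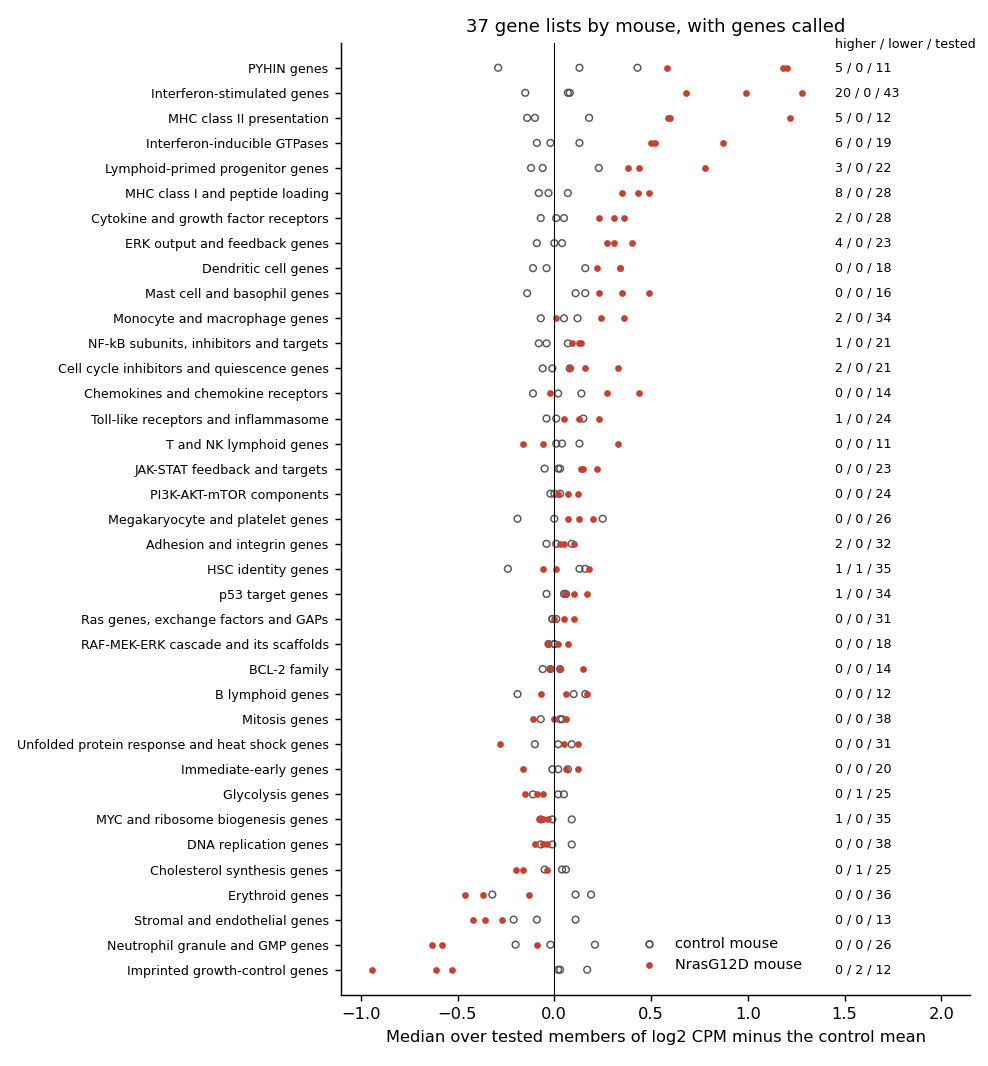
Median over the tested genes of each of 37 lists of the log2 CPM minus the control mean (x axis), with 1 open circle per control mouse and 1 red point per NrasG12D mouse. Numbers at the right give genes called higher, called lower and tested, from 20, 0 and 43 for interferon-stimulated genes to 0, 2 and 12 for imprinted genes. The PYHIN, interferon, GTPase, MHC and ERK output lists have each red point to the right of each circle. So do the cytokine receptor, JAK-STAT, NF-kB, lymphoid-primed, mast cell and dendritic cell lists, most narrowly for NF-kB (0.09 against 0.07).

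Genes that fell at well-measured levels were few and mixed in function. Grb10, an imprinted adaptor that restrains insulin and other receptor signaling, had 46.7, 56.2 and 62.3 CPM against 31.8, 33.4 and 26.9 (-0.84 ± 0.142, adjusted p = 0.0133), with no overlap. It was called in 4 of the 6 fits and lost without control mouse 2 or control mouse 3 (highest adjusted p = 0.0596). Cd24a, a surface glycoprotein gene, had 179, 232 and 211 CPM against 142, 155 and 151 (-0.47 ± 0.0987, adjusted p = 0.0352, called in 1 of 6).

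Further lower genes at these levels changed by less than 2-fold. Vps13c, a lipid transfer protein gene, fell by 0.49 on the log2 scale (adjusted p = 0.0328), Ndufb9, a subunit of respiratory complex I, by 0.48 (adjusted p = 0.0414), and Lair1, an inhibitory receptor of leukocytes, by 0.62 (adjusted p = 0.042). Each was called in 1 of the 6 fits that left out a mouse. The mitochondrial share of counts was lower in NrasG12D libraries, as given above, and 12 of 13 mitochondrial protein genes lay below 0, of which 1 was called, mt-Nd2 (-0.38 ± 0.0836, adjusted p = 0.0431, called in 0 of 6 of those fits).

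The larger decreases sat at the level where the groups also differ in background reads. Of the 37 lower genes, 17 had more than 5% of their control counts attributable to background at the rate measured over receptor genes. This held for 8 of the 156 higher genes and for 1910 of the 17192 genes tested. Fzd8, a Wnt receptor gene, had 2.35, 1.7 and 2.51 CPM in control mice and 0.117, 0 and 0.131 in NrasG12D mice, from 40, 27 and 48 counts against 2, 0 and 2. The groups were apart and its fitted log2 fold change was -4.58 ± 0.698 (adjusted p = 0.00609, background 6% of control counts), and it was the 1 lower gene called in all 6 fits that left out a mouse. Meg3, an imprinted non-coding RNA that marks long-term HSCs, had 2.88, 1.7 and 0.992 CPM against 0.176, 0.0667 and 0.131. It fell with a fitted change of -3.79 ± 0.63 (adjusted p = 0.0113), with 22% of its control counts attributable to background, and lost its call without NrasG12D mouse 2 (adjusted p = 0.0537). With Grb10 it made the 2 lower calls among 12 tested imprinted genes, whose median was -0.72.

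Other low-level decreases included structural and cytoskeletal genes. Nbea, a scaffold gene of vesicle traffic, had 4.65 to 8.67 CPM in control and 1.27 to 2.75 in NrasG12D mice (-1.79, adjusted p = 0.0154, background 10.1%). Dsp, the desmosome protein gene, had 5.85 to 7.11 and 2.07 to 3.28 CPM (-1.26, adjusted p = 0.0282), Kif21a, a kinesin gene, 3.52 to 5.03 and 0.867 to 1.05 (-2.08, adjusted p = 0.0328), and Dmtn, an erythrocyte cytoskeleton gene, 3.7 to 10.5 and 1.18 to 2.4 (-2.26, adjusted p = 0.0344). Ttn, the muscle titin gene, had 4.23 to 11.5 and 1.11 to 2.6 CPM (-2.14, adjusted p = 0.0431), and 37.7% of its control counts were attributable to background. The groups did not overlap for these 5 genes. They were called in 4, 1, 0, 2 and 2 of the 6 fits that left out a mouse, in the order given. When the estimated background was subtracted from the counts, 22 of the 37 lower genes were still called, and 135 of the 156 higher genes.

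**Figure D5:**
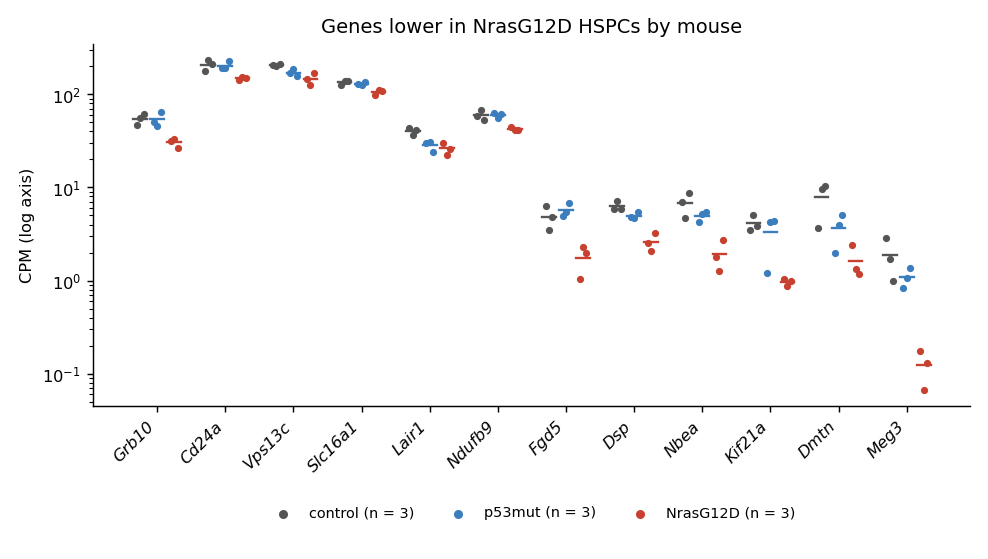
CPM on a log axis of 12 genes called lower in NrasG12D HSPCs, in each control (grey), p53mut (blue) and NrasG12D (red) mouse, with a bar at each group's mean of 3 mice. Each red group lies below its grey group, and p53mut mice reach the NrasG12D range for Vps13c, Lair1 and Dmtn.

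Against p53mut HSPCs, which had the same injections and the same Cre, fewer genes differed. NrasG12D HSPCs had 22 genes higher (0.128% of those tested) and 2 lower (0.0116%) by edgeR's quasi-likelihood test, of which 9 (0.0523%) and 1 (0.00582%) changed at least 2-fold. The comparison uses the same 3 NrasG12D mice, so its values are given beside those against control and are not a second sample of the NrasG12D mice. Oas2 had 3.77, 4.22 and 5.65 CPM in p53mut mice, below all 3 NrasG12D mice, and differed by 2.24 ± 0.248 (adjusted p = 0.00358), beside 1.89 against control. Ifit1 differed by 1.92 (adjusted p = 0.0183), Oas3 by 1.49 (adjusted p = 0.0112), Rtp4 by 1.38 (adjusted p = 0.0183) and Ifi206 by 2.13 (adjusted p = 0.0354). Outside the interferon lists, Gem differed by 1.72 (adjusted p = 0.0194) and Itgb7 by 1.14 (adjusted p = 0.0197), in each case with NrasG12D higher. Most calls against control did not pass here, where 20 of the 156 higher genes were called. Dusp6 differed by 0.57 (adjusted p = 0.149), Satb1 by 0.55 (adjusted p = 0.149), Irf9 by 0.54 (adjusted p = 0.125), Usp18 by 1.40 (adjusted p = 0.0934) and H2-K1 by 0.29 (adjusted p = 0.184). The 2 lower genes were Fzd8 (-4.46 ± 0.704, adjusted p = 0.0183) and Grb10 (-0.81 ± 0.142, adjusted p = 0.0354). Leaving out NrasG12D mouse 2 or mouse 3 brought the 9 genes at 2-fold or more to 3 and 4, and leaving out NrasG12D mouse 1 or p53mut mouse 3 brought them to 18 and 16.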

How the data were processed

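Per the labels and the study's methods, libraries were made from 50000 sorted cells with the SMARTer Stranded Total RNA-Seq kit, and the submitters' processing notes name STAR 2.6.1d, GRCm38.p6, R 3.6.1 and DESeq2 1.26.0. The program that counted reads and its strand setting were not given in the sources used here, so Tnfsf13os, antisense to a coding gene and called lower (-1.72, adjusted p = 0.0195), is uncertain. The authors deposited 1 table of whole-number counts per Ensembl gene (54838 genes), of which 54809 identifiers were matched to GENCODE M21 for symbols, positions and exon lengths.

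Main tests used edgeR 4.0.16 (R 4.3.3, limma 3.58.1): filterByExpr, TMM factors, 1 mean per group and a robust quasi-likelihood fit of 9 injected libraries, with two-sided p-values adjusted by the Benjamini-Hochberg method over 17192 genes. Log2 CPM used a prior count of 2. Background per gene was its exonic length times the receptor-gene rate, 0.385 counts per kb in control and 0.0769 in NrasG12D libraries. Scripts were tested on simulated counts. Each library was 1 mouse. Named genes were Nras and Trp53, the 12 largest called changes in each direction at a mean log2 CPM of at least 1, the 10 smallest p-values, up to 5 called or otherwise 3 abundant members per list, 8 genes named by the study and, where said, genes picked from their values. Members and lists were chosen with earlier results of these data known. Some genes are not reported here. Alternatives were DESeq2 1.42.0, other scalings, filters, sample sets, a sex term, a replicate block and leaving out mice.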

Additional observations from a re-analysis of the deposited data

How the results depend on the processing

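The direction of all 156 higher and 37 lower calls was kept in the fit of all 13 libraries, with DESeq2, without scaling factors and without each of the 6 mice, but the number of calls was not. After background subtraction 156 higher and 33 lower calls were tested with the same direction. With only the 6 compared libraries these were 156 and 35, and with at least 10 counts in every library 151 and 18. Genes that a fit's filter removed are not in these counts. Genes higher at any fold (156) numbered 1 with all 13 libraries, 418 with DESeq2, 101 with library totals, 784 with no filter on low counts and 46 to 137 when 1 mouse was left out. Genes lower at any fold (37) numbered 0, 189, 33, 391 and 3 to 22 in the same order, 18 with at least 10 counts in every library, 22 after background subtraction, 56 with only the 6 compared libraries and 66 with sex as a term. Higher DEGs (39) numbered 1 with all 13 libraries, 82 with DESeq2, 116 with no filter and 19 to 45 without 1 mouse. Lower DEGs (27) numbered 0, 128, 293 and 2 to 16, 7 with at least 10 counts and 13 after background subtraction. Higher genes made up 80.8% of the calls here, 75.4% with library totals, 68.9% with DESeq2 and 66.7% with no filter, where the median over all genes was -0.22. Against p53mut, higher DEGs (9) numbered 0 with all 13 libraries, 34 with DESeq2, 59 with no filter, 17 with sex as a term, 18 with a replicate block and 3 to 18 without 1 mouse, and lower DEGs (1) numbered 0, 17, 51, 3, 2 and 0 to 4, and 0 with at least 10 counts.

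Same-numbered control and NrasG12D mice had correlations of their deviations of -0.119, 0.112 and 0.104, and NrasG12D and p53mut mice -0.0416, -0.0348 and -0.0474, so the numbers were not taken to pair mice, although control and p53mut mice had 0.183, 0.172 and 0.161. A replicate block gave 184 higher and 50 lower genes against control, with 44 and 34 DEGs, and kept 143 of 156 calls upward and 28 of 37 downward. Of the list medians under the alternatives, 560 moved by less than 1 SD between mice and 32 by more. Nras turned to 0.02 with no filter and ranged from -0.06 to 0.01 without 1 mouse, and Dab2ip from -0.04 to 0.30. With 3 mice per group and 15179592 to 18383281 counts per library, genes under a mean log2 CPM of 1 rest on few counts.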

Other observations

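Several called genes outside the lists belong to RNA sensing. They were chosen after their values were seen. Dhx58 and Ddx58, receptors of viral RNA, rose by 0.96 ± 0.167 (SE, adjusted p = 0.0149 by edgeR's quasi-likelihood test) and 0.86 ± 0.176 (adjusted p = 0.0364). Mavs, the adaptor below them, had 27.3, 28.1 and 27.9 CPM in control and 39, 42.5 and 38.1 in NrasG12D mice (0.52 ± 0.1, adjusted p = 0.0252), and Trim25, a ubiquitin ligase of that pathway, 99.4, 106 and 108 against 137, 145 and 152 (0.47 ± 0.078, adjusted p = 0.0113). Adar, which edits double-stranded RNA, rose by 0.57 ± 0.0836 (adjusted p = 0.00468), from 92.5 to 109 CPM in control to 143 to 155 in NrasG12D mice. The groups did not overlap for these 5 genes. Dhx58, Trim25 and Adar were called in all 6 fits that left out a mouse, and Ddx58 and Mavs in 2. Oasl2, an oligoadenylate synthetase-like gene, had 12.9, 15.5 and 16 CPM against 34.7, 40.8 and 55.4 (1.56 ± 0.202, adjusted p = 0.00349), and Helz2 54.8 to 73.3 against 113 to 133 (0.90 ± 0.117, adjusted p = 0.00247). The ADP-ribosylation genes Parp14 and Dtx3l rose by 0.77 ± 0.114 (adjusted p = 0.00541) and 0.64 ± 0.0878 (adjusted p = 0.00287). These last 4 genes were called in all 6 of those fits.

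Cytokine, signaling and chromatin genes were also among the calls, and these too were chosen after their values were seen. Il16, a lymphocyte attractant gene, had 100, 85 and 85.4 CPM in control mice and 129, 137 and 134 in NrasG12D mice (0.56 ± 0.082, adjusted p = 0.0043). Stk10, a kinase gene of lymphocytes, had 73, 62.5 and 64.3 against 99.3, 121 and 105 (0.71 ± 0.101, adjusted p = 0.00395). Crebbp, a histone acetyltransferase gene, had 336, 329 and 352 against 441, 457 and 436 (0.39 ± 0.0657, adjusted p = 0.0123). Each of these 3 genes was clear of the control range and called in all 6 fits that left out a mouse. Il10ra rose by 1.14 (adjusted p = 0.0336), Lsp1 by 0.99 (adjusted p = 0.0112) and Hhex, a hematopoietic homeobox gene, by 0.64 (adjusted p = 0.0179), and they were called in 3, 4 and 2 of those fits. Products of mature cells had large differences that missed the threshold. S100a9, abundant in neutrophils, had 93.3, 19.4 and 23.4 CPM against 10.2, 4 and 18.2 (-2.07 ± 0.878, adjusted p = 0.343), and Slc4a1, the red cell anion exchanger, 4.81, 3.02 and 3.08 against 1.4, 0.6 and 0.393 (-2.15 ± 0.494, adjusted p = 0.0548).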
